A study of Saccharomyces cerevisiae with 6 samples.

Results

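YRA1 (YDR381W, chromosome IV) and DBP2 (YNL112W, chromosome XIV) are budding yeast genes with introns, which were chosen by name as a pair of genes whose introns take part in their own regulation. They are 2 of the 239 genes in the table of splicing-sensitive array features, with 1 row each among its 253 rows. In the study, RNA of Saccharomyces cerevisiae cells carrying the S2197F form of Prp8 was compared with wild type RNA on 2-colour arrays, in 3 pairs of independent cultures, each hybridised on 2 arrays with the dyes exchanged. In both the mutant and the wild type cells the chromosomal PRP8 gene was deleted and PRP8, mutated or not, was supplied on a HIS-marked centromeric plasmid. The cells were kept at 37 °C in rich medium until an OD600 near 0.7, and the sources used here name neither the strain background nor the number of clones. Each gene has an exon, an intron and an exon junction feature, read in the labels as total, precursor and mature mRNA. Each value is the mutant to wild type ratio of 1 biological replicate, taken as log2, so that 1 unit is a doubling and positive values mean more signal in the mutant. The arrays give ratios and no levels, so how abundant either transcript was is not known here.

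Prp8 lies at the catalytic core of the spliceosome, which removes introns in successive cutting and joining steps. Yra1 is an adaptor that joins maturing mRNA to the export receptor Mex67, and Dbp2 is a DEAD-box RNA helicase that acts on RNA during and after transcription and that Yra1 binds. Both genes are known in yeast to limit their own expression through their introns. For YRA1 inefficient splicing is part of this control, and unspliced YRA1 transcripts can leave the nucleus and are degraded in the cytoplasm. An intron feature hybridises to the precursor, the splicing intermediate and the excised intron alike, and an exon feature to spliced and unspliced RNA. The lengths of the introns and the positions of the probes were not examined here.

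The first comparison asked whether each RNA form gave more or less signal in S2197F than in wild type. The intron of DBP2 rose 1.65-fold (95% interval 1.28 to 2.13), and no other feature of the pair passed the test. The intron of YRA1 stood at 1.21-fold (0.938 to 1.57). Exon ratios of both genes averaged above 0, at 1.44-fold (1.08 to 1.93) for YRA1 and 1.34-fold (0.951 to 1.87) for DBP2. The junction of DBP2 also averaged above 0, at 1.47-fold (1.14 to 1.91), and that of YRA1 lay near 0, at 0.951-fold (0.720 to 1.26). These intervals, unlike the test, are not adjusted for the number of features. An interval that leaves out 1 can thus belong to a feature that did not pass.

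The DBP2 intron had log2 ratios of 0.75, 0.57 and 0.85 in replicates 1, 2 and 3. All 3 were above 0 and close to each other. Their mean was 0.73 ± 0.14 (SD, n = 3), and limma, a linear model with variances moderated across all features, gave an adjusted p of 0.023 by the Benjamini-Hochberg method. Among all intron features 23.5% rose by the same test (59 of 251), so a call was common in this class. The call was lost without replicate 2 (ratio 0.80, adjusted p = 0.13), a setting in which 2 introns of the whole table passed.

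The YRA1 intron had 0.28, 0.10 and 0.45 in the 3 replicates, a mean of 0.28 ± 0.17 (SD, n = 3; limma adjusted p = 0.26). These values were above 0 in every replicate, as were those of 51.4% of the introns measured in all 3. The mean lay next to the median of all intron features, which was 0.27.

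For the YRA1 junction, which reports spliced mRNA, the ratios were -0.41, 0.064 and 0.12. Replicate 1 lay below 0 and the others slightly above it, and the mean was -0.072 ± 0.29 (SD, n = 3; limma adjusted p = 0.87). Without replicate 1 the mean turned to 0.094 (adjusted p = 0.93). The DBP2 junction had 0.78, 0.43 and 0.46, all above 0, with a mean of 0.56 ± 0.19 (SD, n = 3). It did not pass (limma, unadjusted p = 0.0090, adjusted p = 0.19), and neither did any junction rise in the whole table by this test (0 of 248; an unadjusted p under 0.05 was reached by 4 higher and 29 lower ones). Junctions above 0 in every replicate made up 6.85% of those measured in all 3 (15 of 219).

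The YRA1 exon, read as total mRNA, had 0.87, 0.18 and 0.53. All 3 ratios were above 0, with a mean of 0.53 ± 0.34 (SD, n = 3; limma, unadjusted p = 0.020, adjusted p = 0.34). Exon features above 0 in every replicate made up 6.41% (15 of 234), while 33.3% were below 0 in every replicate. The DBP2 exon had -0.16, 0.64 and 0.77. Replicate 1 stood apart from the others, and the mean of 0.42 ± 0.50 (SD, n = 3; limma adjusted p = 0.42) became 0.71 without it (adjusted p = 0.32), 0.30 without replicate 2 (adjusted p = 0.76) and 0.24 without replicate 3 (adjusted p = 0.80). By limma 0 of 234 exon ratios passed, and an unadjusted p under 0.05 was reached by 4 higher and 26 lower ones.

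**Figure D1:**
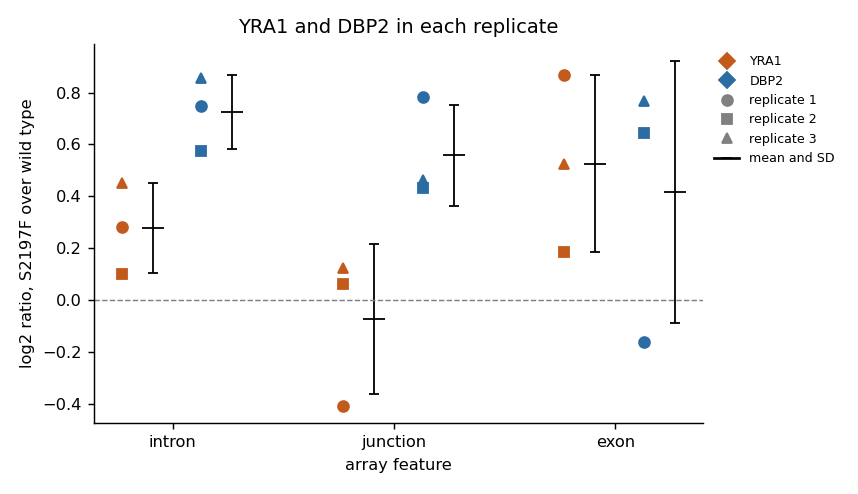
Log2 ratio of S2197F over wild type (vertical axis) for the intron, junction and exon features of YRA1 and DBP2, with 1 symbol per biological replicate and bars for the mean and SD (n = 3). The DBP2 intron and junction lay above 0 in every replicate, and replicate 1 was the lowest value of the YRA1 junction and of the DBP2 exon.

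Because all features of a class share the offset of a replicate, the position of each gene among the features of its class was also taken, which within a replicate stays the same under any centring. In the exon class the means of both genes were near the top: YRA1 ranked 1 and DBP2 ranked 6 of 234. Over the 3 replicates YRA1 held ranks 3, 35 and 7, and DBP2 ranks 121, 2 and 3. DBP2 was thus in the upper ranks in replicates 2 and 3 and near the middle in replicate 1. With replicate 1 left out DBP2 ranked 1 and YRA1 8, and with replicate 2 or 3 left out YRA1 ranked 1 and DBP2 14 or 21.

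In the junction class DBP2 ranked 7 of 248 by its mean and held ranks 13, 5 and 22 in the replicates, of 241, 248 and 226 features measured. YRA1 ranked 104, and its ranks in the replicates were 177, 73 and 69. In the intron class DBP2 ranked 33 of 251, with ranks of 53, 41 and 41, so that between 78.9% and 83.7% of introns had a lower ratio in each replicate. YRA1 ranked 122, with 118, 194 and 107, and between 22.7% and 56.3% of introns were lower. The ranks of DBP2 were thus high in all 3 classes but for the exon of replicate 1, and those of YRA1 were highest for the exon.

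**Figure D2:**
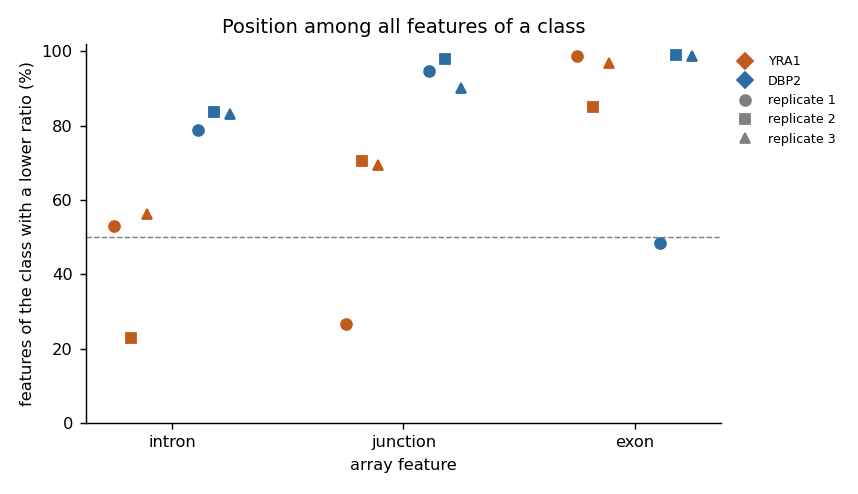
Percentage of the features of a class with a lower log2 ratio than YRA1 or DBP2 (vertical axis) in each class, with 1 symbol per replicate and the dashed line at the middle of the class. The exon values lay above 85% for YRA1 in every replicate and for DBP2 in replicates 2 and 3, against 48.3% for DBP2 in replicate 1.

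The mean over all 9 ratios of a row (3 features by 3 replicates) was 0.57 for DBP2, rank 3 of the 210 rows with all 9 values, and 0.24 for YRA1, rank 28, where the median row had 0.026. DBP2 was the only row whose mean ratio reached 0.4 in all 3 classes (1 of 210, or 0.476%). That limit was chosen after its values were seen, and without replicate 2 or 3 the DBP2 exon mean lay below it. Rows with a mean above 0 in all 3 classes numbered 21, or 10% of the 210, and YRA1, with its junction mean below 0, was not among them.

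YRA1 and DBP2 were measured on the same arrays, so they were set against each other within each replicate. The DBP2 intron ratio exceeded that of YRA1 by 0.47, 0.47 and 0.40, a mean of 0.45 ± 0.038 (SD, n = 3). The difference had 1 sign in 3 of 3 replicates and was larger than its SD, although an SD from 3 values is itself imprecise. For the junction DBP2 exceeded YRA1 by 1.19, 0.37 and 0.34 (0.63 ± 0.48, SD, n = 3), again in 3 of 3 replicates, and by 0.35 on average without replicate 1. For the exon the difference was -1.03, 0.46 and 0.24 (-0.11 ± 0.80, SD, n = 3), so the order of the genes turned in replicate 1. The smallest two-sided p that an exact permutation of the signs of 3 values allows is 0.25. This test gave 0.25 for the intron and the junction and 1 for the exon, or 0.375, 0.375 and 1 when adjusted over the 3 comparisons.

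The next comparison took differences between features of the same gene within a replicate, to ask whether 1 RNA form shifted against another. An offset of a replicate cancels in these differences where it is the same for all feature classes, which the labels and headers do not state. No such difference passed for either gene. Across the table intron minus junction rose for 21.1% of rows (52 of 247) and fell for 1 row. Intron minus exon rose for 29.3% (72 of 246) and fell for 0. Junction minus exon rose or fell for 0 of 244 by limma (an unadjusted p under 0.05 was reached by 5 higher and 6 lower ones).

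For YRA1 the intron exceeded the junction by 0.69, 0.038 and 0.33 (0.35 ± 0.33, SD, n = 3), close to the median of all rows, 0.39 (limma adjusted p = 0.39, 95% interval -0.21 to 0.91). Rows above 0 in every replicate, as here, made up 57.5% of those measured in all 3. Its intron minus exon was -0.59, -0.083 and -0.076 (-0.25 ± 0.29, SD, n = 3), below 0 in 3 of 3 replicates. That mean ranked 232 of 246 rows, whose median was 0.38, and it did not pass (limma adjusted p = 0.42, 95% interval -0.74 to 0.24). Rows below 0 in every replicate were 5.83% of those measured in all 3 (14 of 240). Among them was every row of MTR2, a gene whose several rows share the same exon values. Neither this share nor the rank therefore counts independent genes. Its junction minus exon was -1.27, -0.12 and -0.40 (-0.60 ± 0.60, SD, n = 3), rank 239 of 244, and did not pass either (limma, unadjusted p = 0.054, adjusted p = 0.61), and 15.7% of rows were likewise below 0 in every replicate. Replicate 1 was the farthest from 0 in all 3 differences of YRA1. Without it the means were 0.18 for intron minus junction, -0.079 for intron minus exon and -0.26 for junction minus exon.

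The features of YRA1 therefore stood in the order exon, intron, junction in each of the 3 replicates, although the gap between neighbours was as small as 0.038 in replicate 2. Of the 210 rows with all 9 values, 2 had this order in every replicate (0.952%), the other being AIM11, with means of -0.037, -0.22 and -0.37. The order was looked for after the values of YRA1 were seen. In the table as a whole the intron had the highest median, at 0.27, and exon and junction had -0.12 and -0.10.

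For DBP2 the order of the features changed between replicates. The intron minus junction was -0.033, 0.14 and 0.39 (0.17 ± 0.21, SD, n = 3; limma adjusted p = 0.70, 95% interval -0.39 to 0.73; 0.055 to 0.27 with a replicate left out), so the intron ratio was not shown to exceed that of the spliced form. The intron minus exon was 0.91, -0.069 and 0.087 (0.31 ± 0.53, SD, n = 3; limma adjusted p = 0.36), and it was 0.0090 on average without replicate 1 and 0.50 without replicate 2. The junction minus exon was 0.94, -0.21 and -0.31 (0.14 ± 0.69, SD, n = 3; limma adjusted p = 0.89), with opposite signs in replicate 1 and in the other two. It was -0.26 on average without replicate 1, and 0.32 and 0.37 without replicate 2 and 3.

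In replicate 1 the exon and junction ratios of the pair were mirrored, with YRA1 at 0.87 and -0.41 and DBP2 at -0.16 and 0.78. Over all features of an array, exon ratios correlated between replicates 1 and 2 at r = 0.19, between 1 and 3 at 0.014 and between 2 and 3 at 0.39. For junction ratios r was 0.0015, 0.23 and 0.18 in the same order, so replicate 1 did not stand apart there. Intron ratios correlated between replicates at r = 0.41 to 0.64. These r describe the table across features and are no test.

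**Figure D3:**
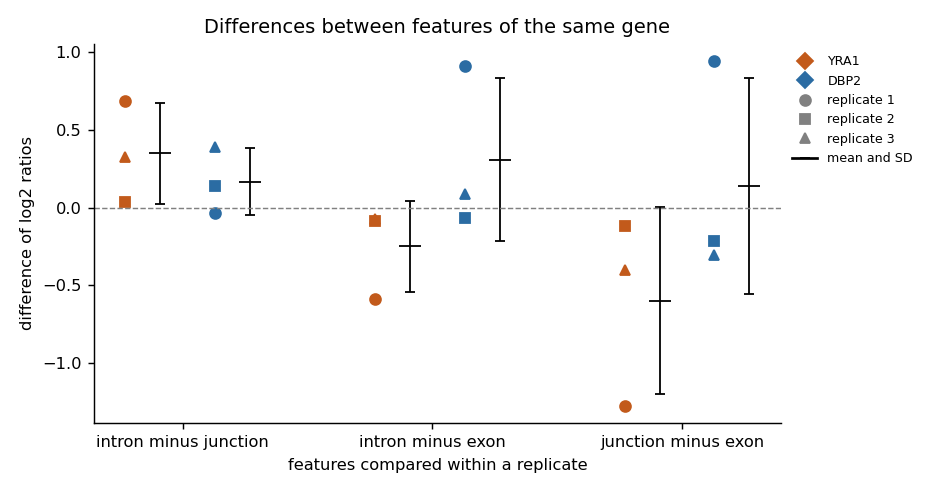
Differences between the log2 ratios of features of the same gene within a replicate (vertical axis) for YRA1 and DBP2, with 1 symbol per replicate and bars for the mean and SD (n = 3). The differences of YRA1 that involve the exon were below 0 in every replicate, and those of DBP2 were 0.91 and 0.94 in replicate 1 and between -0.31 and 0.087 in the others.

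Rows with the most similar values were sought by the root mean square difference over the 9 ratios, among 209 other rows. The row most like YRA1 was the third of 6 rows of MTR2, which encodes the partner of the export receptor Mex67, at 0.18 log2 units where the median row was at 0.57. The next was the second row of SRC1, the gene of an inner nuclear membrane protein with alternatively spliced forms, at 0.25, followed by the sixth row of MTR2 at 0.28. The rows of MTR2 hold the same exon values, so they are not independent of each other. Its other rows were not among the nearest. The fifth had an intron ratio of -1.15 in replicate 3, against 0.45 in YRA1. The first and second each lack a junction value and were not compared, so the likeness holds for single rows and not for MTR2 as a gene. In MTR2 the exon had 0.62, 0.21 and 0.47 in the 3 replicates, and in SRC1 0.55, 0.17 and 0.36, both highest in replicate 1 and lowest in replicate 2, as in YRA1. These rows were picked on the same values, so the likeness is a description.

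DBP2 had no row so close. The nearest were NOG2, a GTPase gene of ribosome assembly, at 0.43, RPL32, at 0.44, and RPL25, at 0.46, which encode proteins of the large ribosomal subunit, and the median row was at 0.71. The intron means of these rows were 0.84, 0.74 and 0.40, and their exon means 0.26, 0.047 and 0.055, below that of DBP2. DBP2 and YRA1 differed from each other by 0.63. By likeness to YRA1, DBP2 came 132nd of 209 rows, farther than the median row at 0.57. By likeness to DBP2, YRA1 came 51st of 209, nearer than the median row at 0.71.

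**Figure D4:**
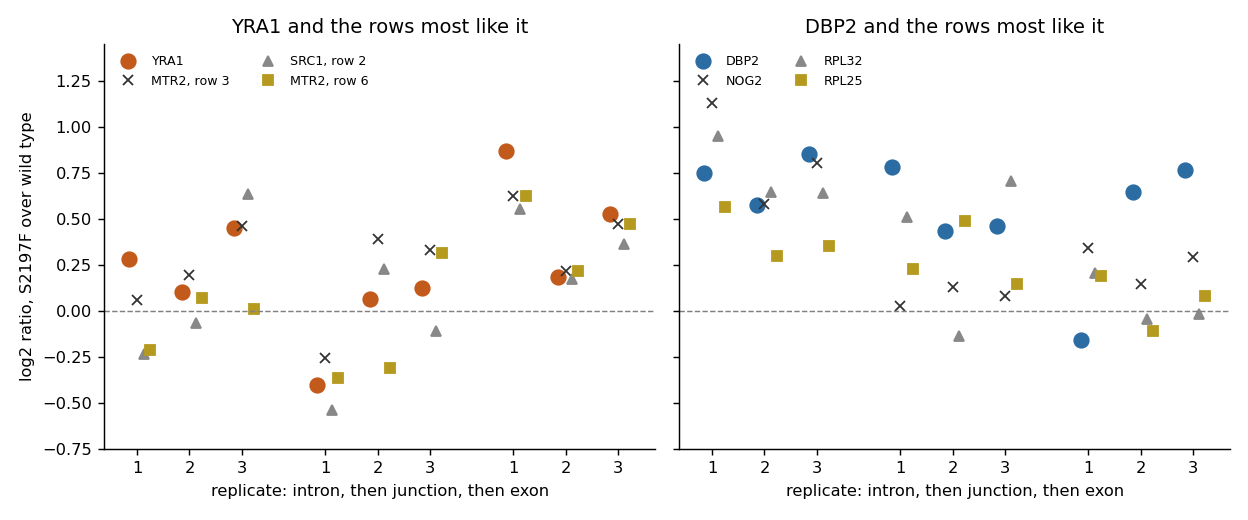
Log2 ratios of S2197F over wild type (vertical axis) in replicates 1, 2 and 3 of the intron, junction and exon features for YRA1 (left) and DBP2 (right), each with the 3 rows of smallest root mean square difference. The MTR2 and SRC1 rows lay close to YRA1 for the exon, whereas none of the 3 rows beside DBP2 reached its values for the exon of replicates 2 and 3.

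Other genes of RNA export, capping, splicing, decay and processing were described from a list of 13 genes, of which 9 were measured, in 15 rows. Introns rose for 2 of the 15, against 23.5% of all introns, and fell for 0, with a list median of 0.12 against 0.27 over all introns. Counted by gene, introns rose for 2 of the 9 measured. MTR2 and TAD3 hold more than 1 row each, none of them called, and rows of 1 gene are not independent. The list median is itself the value of the first row of MTR2. STO1, the large subunit of the nuclear cap-binding complex, had 0.54, 0.74 and 1.25 (mean 0.85, limma adjusted p = 0.023). NOG2, which was listed for ribosome assembly, had 1.13, 0.58 and 0.80 (mean 0.84, limma adjusted p = 0.021). Both, like DBP2, were above 0 in 3 of 3 replicates and missed the threshold without replicate 2 (adjusted p = 0.16 and 0.13). Next came LSM7 (0.63) and LSM2 (0.44), subunits of ring complexes in splicing and mRNA decay, with adjusted p of 0.16 and 0.093. The LSM7 mean rested mostly on replicate 3, since its values were -0.030, 0.34 and 1.56.

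The junction ratio stood at -0.0056 in STO1 and 0.079 in NOG2 against 0.56 in DBP2. The intron minus junction rose in both by limma, by 0.85 (adjusted p = 0.022) and 0.76 (adjusted p = 0.045), against 21.1% of all rows. For STO1 the call was lost without replicate 2 or 3 (adjusted p = 0.069 and 0.16), and for NOG2 without any of the 3 (adjusted p from 0.072 to 0.19). The difference of these genes from DBP2 was not tested.

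Of the list's junctions 0 of 15 passed by limma (an unadjusted p under 0.05 was reached by 1 higher and 1 lower), with a median of -0.12 against -0.10 over all junctions. The ratios largest in size were those of POP8, a subunit of RNase P (-0.61), the fourth and first rows of MTR2 (0.58, and -0.40 with n = 2) and the first row of TAD3, a tRNA deaminase subunit (-0.29 with n = 2). Of its 9 exon features 0 passed by limma (1 higher and 1 lower had an unadjusted p under 0.05), with a median of -0.072 against -0.12 over all exons. MTR2 (0.44) and NOG2 (0.26) were the highest, and MUD1, a protein of the U1 snRNP (-0.37), and TAD3 (-0.26) the lowest. YRA1 (0.53) stood above each of these 9, and DBP2 (0.42) above all but MTR2.

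**Figure D5:**
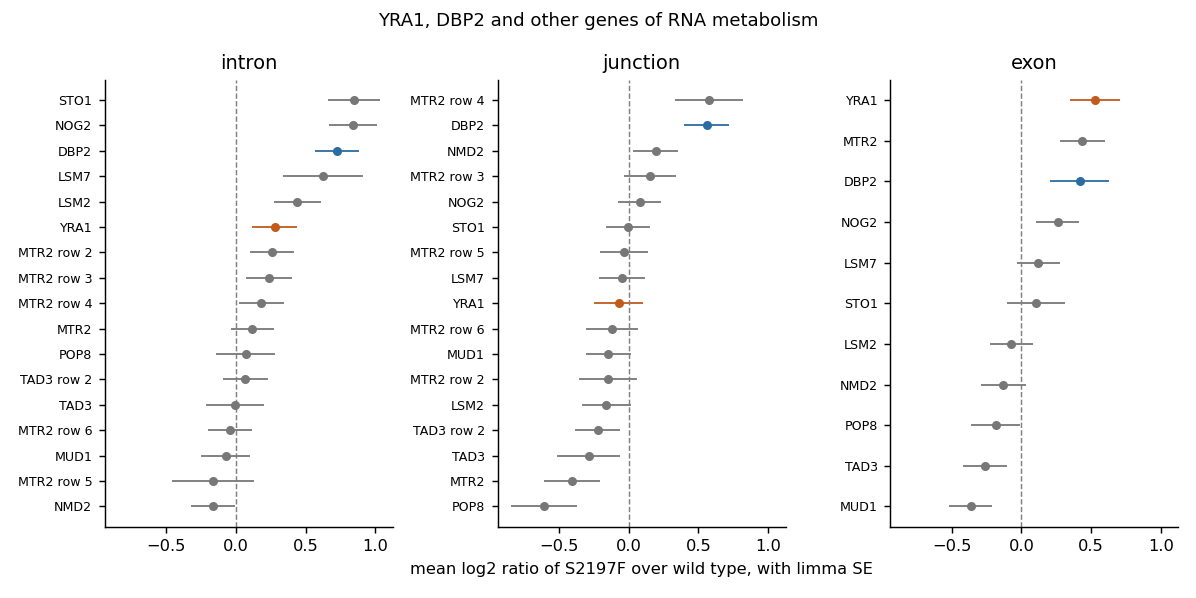
Mean log2 ratio of S2197F over wild type with limma's SE (horizontal axis) for YRA1 (orange), DBP2 (blue) and the listed genes of RNA metabolism (grey), sorted within the intron, junction and exon features. DBP2 came after STO1 and NOG2 for introns and next to the top for junctions. YRA1 was first for exons, next after LSM2 for introns and in the middle for junctions.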

How the data were processed

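The values tested are log ratios that the authors deposited, 1 for each feature and biological replicate. Per the labels, each array was analysed with its dye flip, and the 2 arrays of a pair count here as 1 replicate (n = 3). The labels and headers leave the logarithm's base open. It was taken as log2 because the deposited single-array log2 values stop at 16.61, the base 2 logarithm of 100000, and fold changes rest on this. That table names spots and no genes, its column medians run from -0.81 to 0.22, and its centring and direction are unknown, so it served no other purpose. Background correction, spot filter and normalization are not stated in the labels or headers.

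Features with values in at least 2 replicates, identical rows counted once, were tested against 0 with limma 3.58.1 in R 4.3.3, two-sided, in 1 fit of the 3 classes (251 introns, 248 junctions, 234 exons). Differences between classes of a row had a fit each. Within each class p-values were adjusted (Benjamini-Hochberg, threshold 0.05), and intervals are limma's at 95%, not adjusted for the number of features. The number of arrays limits the precision. The scripts were tested on simulated data with independent noise, where planted shifts had to be recovered on average. Offsets shared by the features of a replicate were not simulated. Alternatives were centring on exon medians, separate fits, a robust prior, complete features and leaving out each replicate. The genes named besides YRA1 and DBP2 were the 3 rows most like each and, from the list, those past the threshold and up to 4 of largest ratio in each class. A planned description by intron length was not made, since no lengths were used here. Members and lists were chosen with earlier results of these data known.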

Additional observations from a re-analysis of the deposited data

How the results depend on the processing

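A p that missed the threshold does not show that a ratio was unchanged. Centring each replicate on its exon median raised ratios by 0.068 to 0.18. It left every call of the pair as it was, turned the YRA1 junction to 0.060, raised the called introns from 59 to 92 and lowered the called junctions from 1 to 0, as did fitting each class alone (0). A robust prior and complete features changed no call of the pair and no count by over 1.5 times. Leaving out a replicate gave 0.66 to 0.80 for the DBP2 intron, whose call was lost without replicate 2, and -0.17 to 0.094 for the YRA1 junction, which turned without replicate 1. Also without replicate 1, the DBP2 junction minus exon (range -0.26 to 0.37) and the exon difference of DBP2 and YRA1 (-0.39 to 0.35) changed sign. Counts of calls over the table ranged from 2 to 47 for introns, 0 to 11 for junctions, 2 to 37 for intron minus junction and 0 to 57 for intron minus exon. The same settings were applied to STO1 and NOG2 after the data were seen. The cause of these changes was not tested.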

Other observations

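In the RefSeq gene table (assembly R64) the next gene after YRA1 is COI1 (YDR381C-A), which also has a row among the intron-containing genes, while the genes beside DBP2 have none. The COI1 intron had -0.09, 0.0027 and 0.85 in the 3 replicates, against 0.28, 0.10 and 0.45 for YRA1, and its junction had 0.96 and -0.47 in replicates 1 and 2, against -0.41 and 0.06. The junction ratios of these neighbouring genes thus had opposite signs in both replicates in which they were measured. The YRA1 value of replicate 2 lay near 0, however, and the contrast was not tested.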
